A study of Gallus gallus with 9 samples.

Results

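The comparison is between untreated explants of chick anterior heart field mesoderm after 12 h of culture, 2 arrays called A and B, and the same kind of explant after 3 h, 1 array. These 3 of the 9 arrays of the series were taken by their time and agent labels, and all 38439 probe sets other than Affymetrix controls were considered. The question is what settles after the tissue has been cut out and plated, and what starts before muscle is plainly visible. The tissue is splanchnic mesoderm from chicken embryos, laid on a collagen drop in MEM with fetal calf serum, chick embryo extract and antibiotics, and no factor was added to the untreated explants. The other arrays used for reference are untreated explants at 0 h and 24 h, 1 array each, and explants given BMP4, a bone morphogenetic protein, at 200 ng/ml, with 1 array at 3 h and an A and a B array at 12 h. The series also holds 1 BMP4 array at 24 h. The sources used here do not give the age of the embryos, how many explants made a sample, or whether A and B are separate cultures, so each p-value reflects the spread among these arrays, which may be technical.

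Anterior heart field progenitors are multipotent mesoderm cells behind and above the early heart tube. They carry ISL1 and NKX2-5, add myocardium to the growing heart, and also give rise to muscle and connective tissue of the head and pharynx. When they become heart muscle they switch on the genes of the sarcomere, the contractile unit of thick myosin filaments and thin actin filaments. Cells of many kinds also share general programmes. One of them is the integrated stress response, in which the transcription factor ATF4 raises genes that make, import and charge amino acids. Another is the sterol programme, in which SREBP factors raise the enzymes of cholesterol and fatty acid synthesis when membranes run short of sterol.

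Each array gives one MAS5 signal per probe set, a linear brightness value, and the array medians lie between 67.17 and 67.67. The 12 h arrays A and B correlated at 0.970 across probe sets, and the 3 h array correlated at 0.964 with A and 0.962 with B. The GAPDH 3′ to 5′ ratio, a sign of RNA quality, was 2.22 at 3 h, against 1.57 and 1.54 at 12 h, and its part in the results below was not tested. The same ratio for ACTB was 4.51 at 3 h, which lies between the 12 h values of 5.44 and 3.80.

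A few markers that bear on the heart field label were read first, which is not a full check of it. ISL1, a LIM homeodomain factor of the heart field, gave a signal of 6578 at 3 h, and 7705 and 6589 at 12 h. NKX2-5, the cardiac homeodomain factor, read 6136 at 3 h, and 4049 and 6233 at 12 h. GATA5, a zinc finger factor of heart mesoderm and endoderm, read 6546, then 8024 and 9260.4. These 3 genes were bright at both times, far above the array medians, but GATA5 is not on the heart field list used here. The heart field genes GATA4, MEF2C and FGF10 were dim at both times. MYOD1 and MYOG, the regulators that define skeletal muscle, did not pass the filter on low signals. The 20 measured markers of pharyngeal endoderm and epithelium had a summed signal of 88741 at 3 h, and 88246 and 92505 at 12 h. That of the 21 heart field genes was 26370, then 31476 and 33721. Such sums rest on different probe sets, and the share of each cell type was not tested. In bulk samples such as these, a change in the number of cells of a type and a change in RNA per cell cannot be told apart.

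From 3 h to 12 h the genes that fell were led by amino acid supply and stress genes, and the genes that rose included enzymes of sterol synthesis, a small set of sarcomere genes and matrix proteins. Differences are on the log2(signal + 27.79) scale, 12 h minus 3 h, with a standard error from the fit, and called means an adjusted p below 0.05 (limma, Benjamini-Hochberg over all 28329 tested probe sets). Of these, 142 were called, which is 0.501%, with 85 higher and 57 lower at 12 h. Among 11721 named genes, each read from its brightest probe set, 95 were called (0.811%), with 57 higher (0.486%) and 38 lower (0.324%). The median difference was 1.58 over the genes called higher, -1.89 over those called lower and -0.01 over all named genes. Set against the 0 h array, the 12 h mean of 45 genes called higher was at least 1 above on the log2 scale. The other 12 were within 1 of it. Among the 38 called lower, 29 were within 1 of it, 6 at least 1 below and 3 at least 1 above. The share within 1 was 93.0% of all named genes. Every error rests on 2 residual degrees of freedom from the 12 h pairs and on a trend over signal pooled across probe sets. That trend counts for a median of 8.2 further degrees of freedom. The lone 3 h array is assumed to vary like the 12 h pairs. Without the variance trend over signal no probe set was called by limma, although 2519 had an unadjusted p under 0.05 there.

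**Figure D1:**
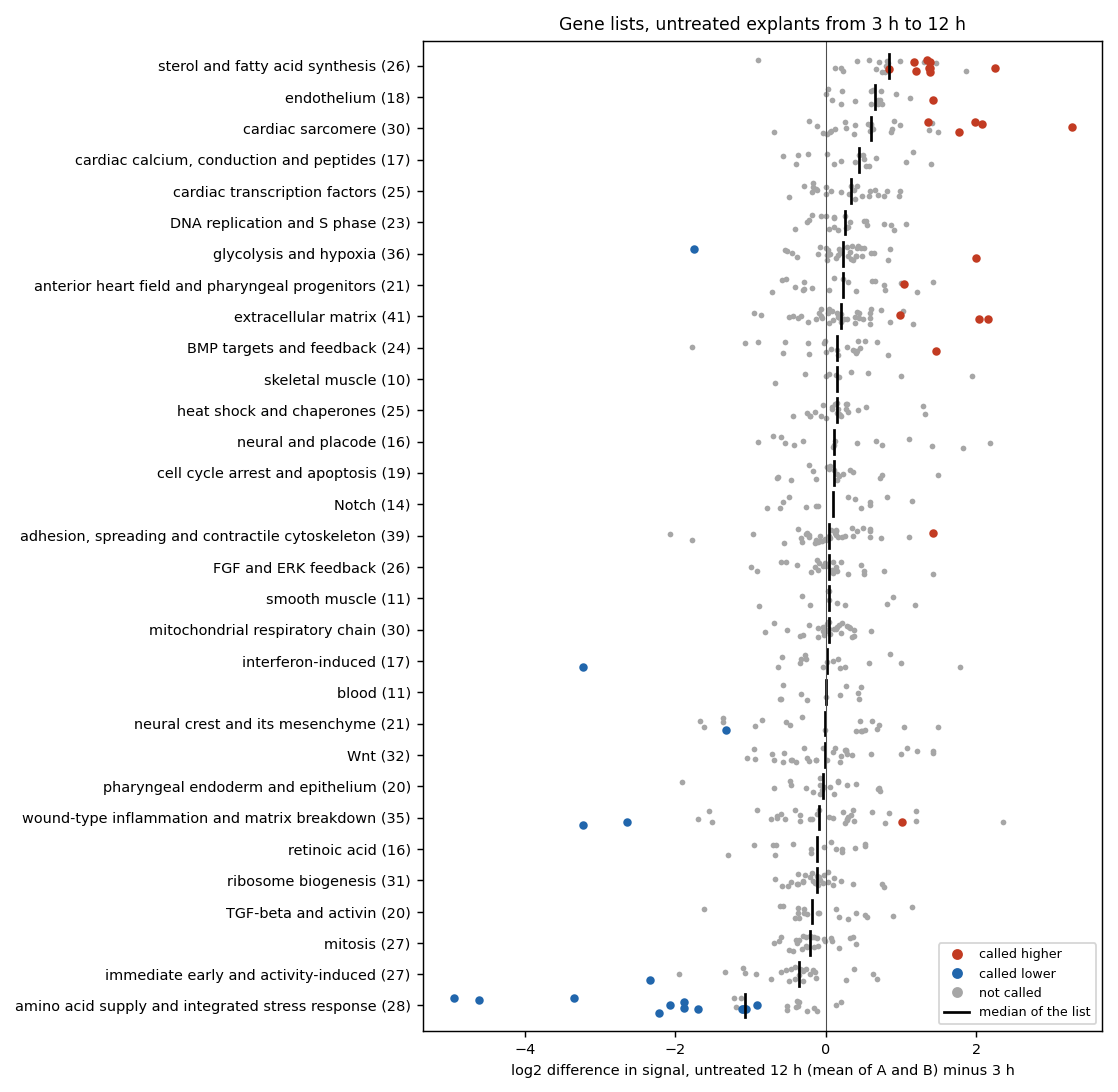
Log2 difference in signal, untreated 12 h minus 3 h (horizontal axis), for the tested members of each gene list (rows, number tested in brackets); each point is a gene, red called higher, blue called lower, grey not called, and the black bar is the list's median. The amino acid list lies furthest left, with 12 of 28 genes called lower and a median of -1.07. The sterol list lies furthest right, with 9 of 26 called higher and a median of 0.83. Of all named genes 0.324% were called lower and 0.486% higher.

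Genes of amino acid supply and the integrated stress response had more calls than any other list, and the lowest median. Of 28 measured genes, 12 fell, none rose, and 26 had a negative difference, with a median of -1.07. Over all named genes 0.324% were called lower, and 6048 of 11721 had a negative difference. CHAC1, an enzyme that breaks down glutathione and a target of ATF4, gave a signal of 8850.5 at 3 h, and 260.3 and 264 at 12 h. This was the most negative difference of all named genes called, -4.94 ± 0.27 (adjusted p = 0.000112). At 0 h the CHAC1 signal was 346, so both 12 h arrays lay below the 0 h array, a step that was not tested.

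Some genes that make serine and asparagine also fell from 3 h to 12 h. PHGDH, a further serine synthesis gene on the list, was measured and not called. PSPH, the phosphatase of the last step of serine synthesis, went from 4945 at 3 h to 163 and 188 at 12 h, a difference of -4.61 ± 0.28 (adjusted p = 0.000112). Its second probe set gave only -0.19, so the size of the fall rests on the brighter one. ASNS, asparagine synthetase, went from 6117 to 601 and 559, a difference of -3.34 ± 0.25 (adjusted p = 0.000412). For both genes the 12 h arrays were alike and far below the 3 h array. PSAT1, the aminotransferase of serine synthesis, fell from 10491 to 2759.8 and 2883 (-1.88 ± 0.17, adjusted p = 0.00211). ALDH18A1, an enzyme of proline synthesis, fell by 1.70 on the log2 scale. Unlike CHAC1, PSPH and ALDH18A1 stayed above their 0 h readings of 146 and 1596 on both 12 h arrays.

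The amino acid transporters SLC7A5, SLC1A4 and SLC7A3 fell, while SLC7A11 and SLC38A2 did not pass the test, at -0.92 and -0.15 (adjusted p = 0.604 and 0.893). SLC7A5, a carrier of large neutral amino acids, read 5235 at 3 h, and 1006 and 1202 at 12 h (-2.22 ± 0.22, adjusted p = 0.00306). SLC1A4, a carrier of alanine, serine and cysteine, read 4347, then 1039 and 992 (-2.07 ± 0.22, adjusted p = 0.0043). Each of these 12 h readings was also below the 0 h array, at 2879 for SLC7A5 and 1327 for SLC1A4. SLC7A3, a carrier of cationic amino acids, fell by 1.89, but its 7 probe sets ranged from -1.89 to 0.77. SLC6A9, a glycine carrier that stood on no list and was picked after its values were seen, went from 1425 to 391 and 273 (-2.03, adjusted p = 0.0263), a call lost without array B (adjusted p = 0.0573).

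Of the regulators and tRNA synthetases, ATF4, CEBPG, TARS and GARS fell. ATF4 itself was among the brightest genes, at 22582 at 3 h, and 11699.5 and 12263 at 12 h, a difference of -0.91 ± 0.13 (adjusted p = 0.0137). CEBPG, a partner of ATF4, fell by 1.11 on its brightest probe set, while its second one gave 0.32. The threonyl and glycyl tRNA synthetases, TARS and GARS, fell by 1.10 and 1.07. Without array B, CEBPG, TARS and GARS were no longer called, with adjusted p of 0.0747, 0.0567 and 0.0572. Synthetases for alanine, cysteine, asparagine, serine and tryptophan did not pass, with differences from -0.52 for WARS to -0.25 for SARS1. Among members that did not pass the test, STC2, a secreted stress-induced glycoprotein, had a difference of -1.22 (adjusted p = 0.238), MTHFD2, a mitochondrial folate enzyme, -1.19 (adjusted p = 0.135), and CTH, which makes cysteine, -1.12 (adjusted p = 0.0635). STC2, MTHFD2 and CTH were picked after their values were seen, and PSAT1, ALDH18A1, SLC7A3, ATF4, CEBPG, TARS and GARS are named because they were called. For 9 of the 12 called genes both 12 h arrays were below the 0 h array. The gap was narrow for GARS, at 4723 at 0 h, and 4631 and 4633 at 12 h. By 24 h, 10 of the 12 read above both 12 h arrays and 1 below both. Low 12 h arrays are what got these genes called, which favours both counts. The matching shares over all named genes were not counted. CHAC1 read 1102 at 24 h and PSPH 765. Over the whole list the median log2 step was 0.87 from 0 h to 3 h, -1.07 from 3 h to 12 h and 0.11 from 12 h to 24 h, and adjoining steps share arrays.

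**Figure D2:**
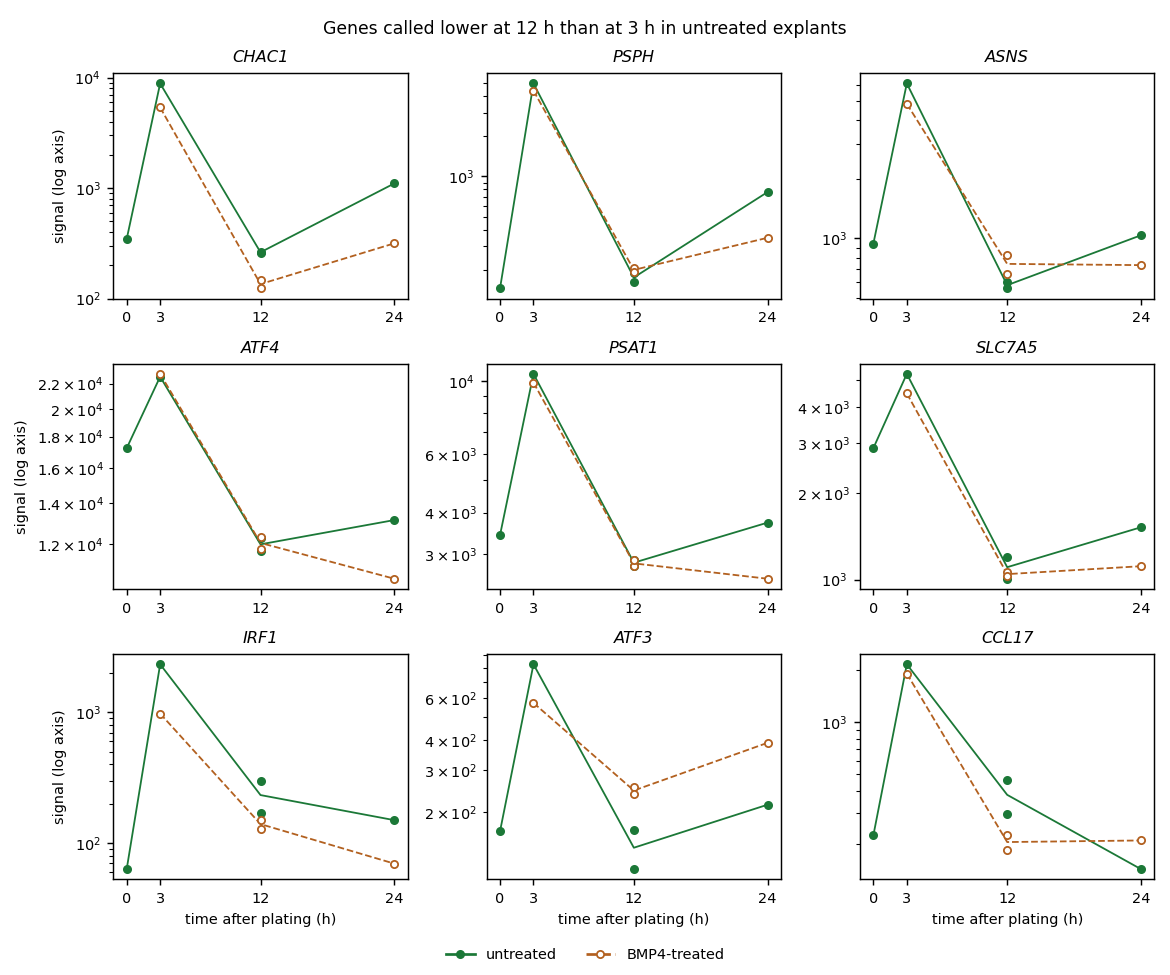
Signal of 9 genes called lower at 12 h (vertical log axis, its range set per gene) against time after plating in hours; each point is 1 array, lines join the means, green filled for untreated and brown open for BMP4-treated explants. In all 9 genes the untreated 3 h array is the highest untreated point, with CHAC1 at 8850.5 at 3 h and 346 at 0 h.

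Called genes of the wound-type and immediate early lists were IRF1, IL18, MMP2 and ATF3. Of 35 wound-type inflammation and matrix breakdown genes, 2 fell and 1 rose, next to 0.324% and 0.486% of all named genes, with a median of -0.09. IRF1, also the 1 call among 17 interferon-induced genes, an interferon-responsive transcription factor, read 63 at 0 h, 2331 at 3 h, and 169 and 296 at 12 h (-3.22 ± 0.37, adjusted p = 0.00512). IL18, an inflammatory cytokine, went from 433 to 37.1 and 55.9 (-2.64 ± 0.40, adjusted p = 0.0236), and its second probe set gave -0.43. The gene of the list that rose was MMP2, a gelatinase, at 2885, then 6038 and 5720.3 (1.02 ± 0.17, adjusted p = 0.0368), a call lost without array A (adjusted p = 0.0908) or without array B (0.0675). CCL17, a chemokine outside the list, read 2156 at 3 h, and 297 and 467 at 12 h (-2.45 ± 0.34, adjusted p = 0.0137).

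MMP9 and CEBPB of the inflammatory list missed the threshold. MMP9, a gelatinase of inflamed tissue, read 1209 at 3 h, and 247 and 502 at 12 h (adjusted p = 0.401), a gene picked after its values were seen. CEBPB, a transcription factor of acute inflammation also picked in this way, read 4534, then 1063 and 2181 (adjusted p = 0.157). In both genes the 2 arrays at 12 h were below the 3 h array but about 2-fold apart.

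Of 27 immediate early and activity-induced genes, 1 fell and 23 had a negative difference, with a median of -0.36. Over all named genes 0.324% were called lower, and 6048 of 11721 had a negative difference. The gene called was ATF3, a stress-induced repressor, at 826 at 3 h, and 116 and 169 at 12 h (-2.34 ± 0.33, adjusted p = 0.0162). The AP-1 genes FOS and JUN had differences of -0.73 (adjusted p = 0.695) and -0.40 (adjusted p = 0.504), and FOS was dim at 3 h, at 96.3. EGR1, a growth factor-induced zinc finger gene, had a difference of 0.62 (adjusted p = 0.683), with 1031 at 3 h, and 1173 and 2191 at 12 h.

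Other genes among the 15 with the most negative called differences belong to no one process. TSPAN1, a tetraspanin, went from 2228 to 349 and 309 (-2.66, adjusted p = 0.00503). CCNA1, a cyclin, read 36.5 at 0 h, 1204 at 3 h, and 216 and 246 at 12 h (-2.25, adjusted p = 0.0134), so it stayed above the 0 h array. DDR2, a collagen receptor kinase, went from 1523 to 224 and 314 (-2.40, adjusted p = 0.00919), which is below its 0 h reading of 851. ABCG2, an efflux pump, GNAZ, a G protein subunit, and the unnamed locus LOC422929 had called differences of -2.41, -2.07 and -2.09. For GNAZ the 3 probe sets ran from -2.07 to 0.34, and for LOC422929 a second one gave -0.10. NDRG1 and ETS1 are not among those 15 and are named as called list members. NDRG1, a stress- and hypoxia-induced gene, fell by 1.76. ETS1, a transcription factor on the neural crest list, fell by 1.33 on the brightest of 6 probe sets, which ran from -1.52 to 0.23. Without array B, GNAZ and ETS1 were no longer called (adjusted p = 0.0638 and 0.0571), and LOC422929 was lost without either array (0.0747 without A, 0.0914 without B).

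Genes of sterol and fatty acid synthesis had the highest median of the lists. Of 26 measured genes, 9 rose, none fell and 25 had a positive difference, with a median of 0.83. Over all named genes 0.486% were called higher, and 5673 of 11721 had a positive difference. FDPS, which makes farnesyl diphosphate on the way to cholesterol, read 2523 at 0 h and 2209 at 3 h, then 10469 and 10709.8 at 12 h (2.25 ± 0.17, adjusted p = 0.000412). LSS, which closes the sterol ring system, read 2841 at 3 h, and 6990.2 and 7919 at 12 h (1.38 ± 0.18, adjusted p = 0.00925). The gap between A and B was small in both genes beside the step from 3 h.

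Called genes included 5 enzymes of the steps from squalene towards cholesterol, named because they were called. FDFT1, which makes squalene, rose from 4288 to 10100.5 and 9648 (1.20, adjusted p = 0.0107), and SQLE, which oxidises it, from 8448 to 15611 and 14624 (0.84, adjusted p = 0.0469). MSMO1, a sterol demethylation enzyme, rose from 7522 to 19056 and 19391 (1.35 ± 0.15, adjusted p = 0.00503). NSDHL and HSD17B7, which act after it, rose by 1.37 and 1.18. INSIG1, the sterol-regulated brake on SREBP processing, rose from 3157 to 9395 and 7308 (1.38, adjusted p = 0.0166), and ELOVL6, a fatty acid elongase, rose by 1.39. SQLE and HSD17B7 were lost without array A (adjusted p = 0.123 and 0.0512) and without array B (0.0821 and 0.0931), and ELOVL6 without B (0.0621).

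Several sterol and lipid genes had differences of similar size but missed the threshold. FASN, fatty acid synthase, read 725 at 3 h, and 2548 and 1663 at 12 h (1.47 ± 0.30, adjusted p = 0.0808). HMGCS1, which makes HMG-CoA, had a difference of 0.99 (adjusted p = 0.121), ACLY, which makes cytosolic acetyl-CoA, 0.81 (adjusted p = 0.0623), and SREBF2, the sterol master regulator, 0.80 (adjusted p = 0.166). The only negative member was INSIG2, at -0.90 (adjusted p = 0.515). These 4 genes and FASN were picked after their values were seen. At 24 h, 8 of the 9 called genes read below both 12 h arrays, the exception being ELOVL6, and FDPS read 7142. High 12 h arrays are what got these 9 genes called, which favours a lower reading at 24 h. The matching share over all named genes was not counted. Of all 57 genes called higher, 0 were at least 1 lower on the log2 scale at 24 h than at 12 h, and 8 at least 1 higher. The list's median step was 0.14 from 0 h to 3 h, 0.83 from 3 h to 12 h and -0.54 from 12 h to 24 h.

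Of 30 measured genes of the cardiac sarcomere, 5 rose in the same interval and none fell, next to 0.486% of all named genes called higher. The list's median was 0.60 and 26 members had a positive difference, next to 5673 of 11721 named genes. The list's summed signal was 52989 at 0 h and 41689 at 3 h, then 53113 and 67150 at 12 h. Array A was thus close to the 0 h array, and array B above it. From 0 h to 3 h, 19 members went down and 11 up. Among the 5 called genes, 2 read higher at 3 h than at 0 h. MYL2, the regulatory light chain of ventricular myosin, read 1089 at 0 h and 628 at 3 h. It then read 2406 and 3128 at 12 h, and 10838 at 24 h (2.08 ± 0.21, adjusted p = 0.00312). CSRP3, the muscle LIM protein of the Z-disc, read 1210.2, then 3892 and 6129.8, then 10405 (1.99 ± 0.26, adjusted p = 0.00919). In both genes the 12 h arrays stood between the 3 h and the 24 h array.

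MYBPC3, the myosin-binding protein C of heart muscle, had a signal of only 5.66 at 3 h, and read 282 and 306 at 12 h and 1595 at 24 h. Its difference was 3.27 ± 0.37 (adjusted p = 0.00503), a size that depends on the added 27.79. MYL3, an essential myosin light chain, went from 114 to 379 and 550.1 (1.77 ± 0.31, adjusted p = 0.0442). MYH15, a myosin heavy chain of the chick ventricle, went from 1651 to 3560.4 and 5154 (1.36 ± 0.22, adjusted p = 0.0297). The calls of MYL3 and MYH15 were lost without 12 h array B, where their differences were 1.52 and 1.10. That run leaves 1 untreated array at each time. CSRP3, MYBPC3 and MYL2 were still called there.

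The other sarcomere genes did not pass the test. ACTC1, cardiac actin, read 4026 at 0 h, 2379 at 3 h, 3536 and 5696 at 12 h, and 13532 at 24 h (0.91 ± 0.24, adjusted p = 0.183). TNNT2, cardiac troponin T, read 7021 at 3 h, and 7190.4 and 11758 at 12 h (0.39 ± 0.23, adjusted p = 0.651), so array A was next to the 3 h array and array B well above it. TTN, titin, had a difference of 0.27 (adjusted p = 0.901) with A below and B above the 3 h array. ACTN2, the alpha-actinin of the Z-disc, had a difference of 0.87 (adjusted p = 0.437), MYL4, an atrial light chain, 0.06 (adjusted p = 0.953), and MYH7, a heavy chain that was dim here, 0.02 (adjusted p = 0.995). For ACTC1 and TNNT2 the 3 h array was also below the 0 h array. MYH7B, SMPX and UNC45B, a myosin, a small muscle protein and a myosin chaperone, had differences of 1.42, 1.49 and 1.38 with adjusted p of 0.102, 0.0808 and 0.159, and were picked after their values were seen.

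The transcription factors of heart muscle were measured without a call. Of 25 cardiac transcription factors none passed the test in either direction, and their median difference was 0.33. NKX2-5 had a difference of -0.29 ± 0.30 (adjusted p = 0.814), its 3 h reading lying between arrays A and B. GATA5 had one of 0.40 ± 0.15 (adjusted p = 0.393) and HAND2, a helix-loop-helix factor of the heart field, 0.77 ± 0.32 (adjusted p = 0.455). MYOCD, the coactivator of SRF in heart and smooth muscle, had a difference of 0.38 ± 0.36 (adjusted p = 0.795). SMYD1, a muscle methyltransferase, had one of 0.33 ± 0.35 (adjusted p = 0.817), and GATA4, HAND1, TBX5 and MEF2C were dim, with no untreated 3 h or 12 h signal above 117. None of the 17 measured genes of cardiac calcium handling, conduction and peptides was called, with a median of 0.45. Over all named genes 0.811% were called, so lists of this size without a call are not shown to have stayed level.

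Of 21 genes of the anterior heart field and pharyngeal progenitors, 1 rose and none fell, with a median of 0.24. Over all named genes 0.486% were called higher and 0.324% lower. The gene that rose was NKX2-6, a relative of NKX2-5 found in the pharyngeal region and outflow tract. It read 3855 at 0 h, a lower 2508 at 3 h, and 5038 and 5343 at 12 h (1.04 ± 0.17, adjusted p = 0.0302). That call was lost without array A (adjusted p = 0.0555) and without array B (0.0853). ISL1 had a difference of 0.11 ± 0.16 (adjusted p = 0.869), with its 3 h reading just below both 12 h arrays. TBX1, the T-box factor of pharyngeal mesoderm, had one of -0.53 (adjusted p = 0.748), TCF21, a helix-loop-helix factor of head muscle and epicardial progenitors, -0.29 (adjusted p = 0.77), and FGF8, a growth factor of the heart field, 0.29 (adjusted p = 0.78). FGF10, a growth factor of the heart field, was dim, at 13.7 at 3 h, and 68.5 and 101 at 12 h (adjusted p = 0.398). MYF5, an early regulator of skeletal muscle, was dim as well, at 33.7, then 86.2 and 105 (adjusted p = 0.513).

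**Figure D3:**
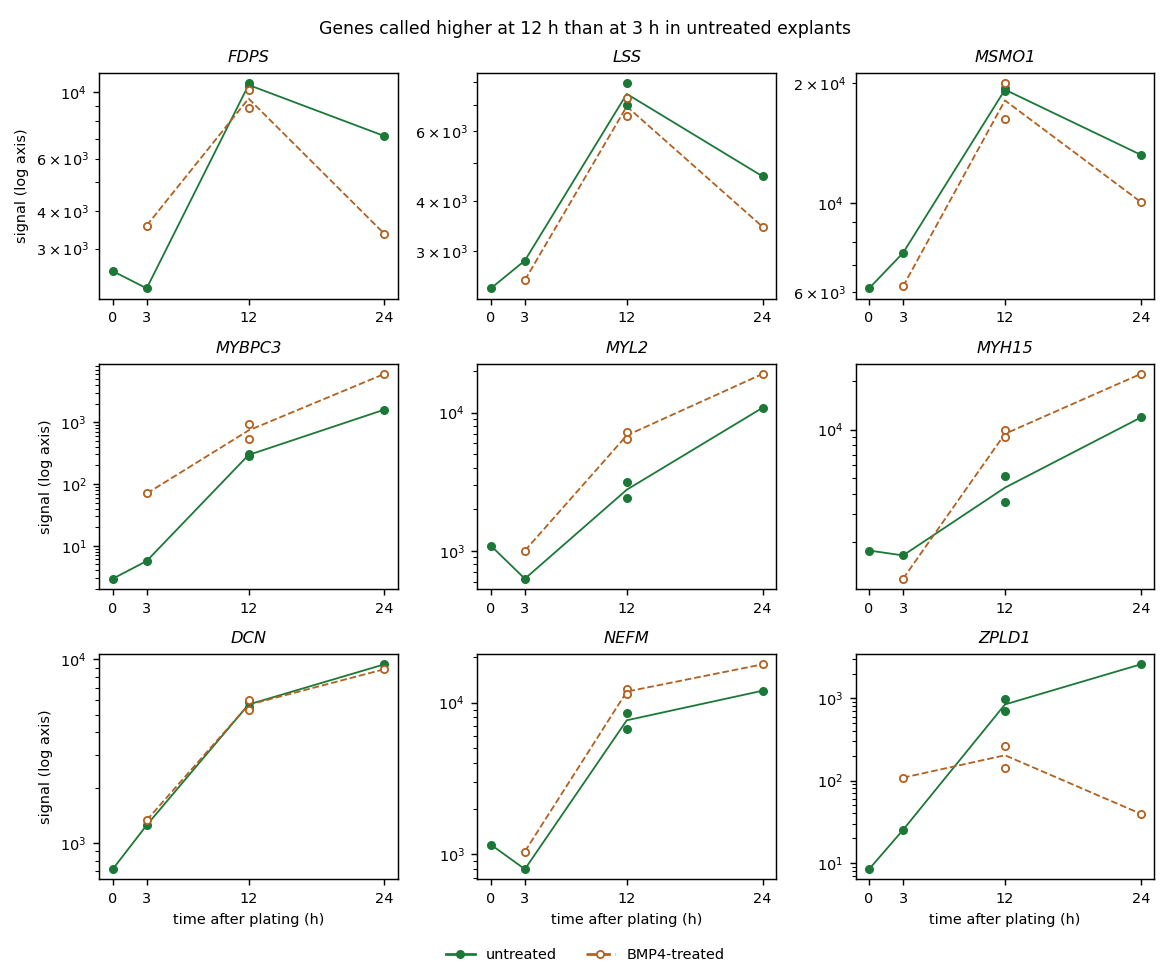
Signal of 9 genes called higher at 12 h (vertical log axis, its range set per gene) against time after plating in hours; each point is 1 array, lines join the means, green filled for untreated and brown open for BMP4-treated explants. The sterol genes FDPS, LSS and MSMO1 are highest at 12 h in untreated explants, while MYBPC3, MYL2, MYH15, DCN, NEFM and ZPLD1 are higher still at 24 h.

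Matrix and connective tissue genes were also among those that rose. Of 41 extracellular matrix genes, 3 rose and none fell, with a median of 0.20, next to 0.486% of all named genes called higher. DCN, decorin, a small collagen-binding proteoglycan, read 1250.0 at 3 h, 5853 and 5486 at 12 h and 9377 at 24 h (2.16 ± 0.19, adjusted p = 0.00137). LUM, lumican, of the same family, was already bright at 3 h, at 10621, and read 20735 and 21504 at 12 h (0.99 ± 0.14, adjusted p = 0.017). COL14A1, a collagen of fibril surfaces, went from 568 to 2584 and 2263 (2.04 ± 0.23, adjusted p = 0.00503), with 5 probe sets between -0.39 and 2.79.

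The neurofilament genes NEFM and NEFL were both among the 15 highest called genes. NEFM, the medium neurofilament subunit, read 795 at 3 h, 6738 and 8557 at 12 h, and 11988 at 24 h (3.21 ± 0.19, adjusted p = 0.000112). NEFL, the light subunit, read 140.3, then 556 and 788 (2.04 ± 0.32, adjusted p = 0.0263), a call lost without array B (adjusted p = 0.0587). NPY, a peptide transmitter named after its values were seen, read 1594, then 4829.9 and 5798 (1.71 ± 0.21, adjusted p = 0.00762). Beside these, none of the 16 measured neural and placode markers was called. Their median difference was 0.12, and their summed signal was 13832.5 at 3 h against 14331 and 15784 at 12 h; the part of such cells in the 3 genes was not tested.

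ZPLD1, a zona pellucida-domain membrane protein, had the most positive difference of the named genes, from 25.1 at 3 h to 991 and 691 at 12 h and 2588 at 24 h (4.02 ± 0.41, adjusted p = 0.00344). IL15, a cytokine of lymphocyte growth, went from 113 to 1200.5 and 1292 (3.18 ± 0.41, adjusted p = 0.00919). DPH6, an enzyme of diphthamide synthesis, went from 1211 to 8914 and 8502 (2.82 ± 0.18, adjusted p = 0.000141), but its second probe set gave -0.40. The ZPLD1 reading at 3 h is below the added 27.79, so the size of its difference depends on that amount.

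The rest of the 15 most positive called genes were TGM4, a transglutaminase, at 2.50, PSMB5, a proteasome subunit, at 2.64, ETNPPL, a phospholyase of phosphoethanolamine, at 2.39, SUGCT, a glutarate CoA-transferase, at 2.38, and the loci LOC419677 and LOC418543, at 2.42 and 2.07. SUGCT and LOC419677 read under 27.79 at 3 h, and second probe sets of ETNPPL and SUGCT gave -0.61 and -0.21. TGM4, SUGCT and LOC419677 were no longer called without array B, with adjusted p of 0.0506, 0.0556 and 0.0914. LDHA, lactate dehydrogenase A, was the member of the glycolysis and hypoxia list that rose, from 1675 to 8619.5 and 5274 (1.99 ± 0.25, adjusted p = 0.00762), with 18587 at 24 h. The 36 measured genes of that list had a median of 0.24, with NDRG1 the only one called lower. BMP7, a bone morphogenetic protein, rose from 595 to 1571 and 1821 (1.47 ± 0.23, adjusted p = 0.0267), the 1 call among 24 genes of BMP targets and feedback and lost without array B (adjusted p = 0.0667). BMP7 had read 1257 at 0 h, so its 3 h array was below the 0 h array. S100A6, a calcium-binding protein, rose by 1.43, the 1 call among 39 adhesion and cytoskeleton genes. The share called over all named genes was 0.486% higher and 0.324% lower.

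Of the markers of other tissues, EGFL7 and ETS1 were called. All 18 measured endothelial genes had a positive difference, with a median of 0.66, and 1 was called higher. Over all named genes 5673 of 11721 had a positive difference and 0.486% were called higher. That gene was EGFL7, a secreted endothelial factor, at 894 at 3 h, and 2734 and 2205 at 12 h (1.43 ± 0.25, adjusted p = 0.0374), a call lost without array A (adjusted p = 0.0816). KDR, a VEGF receptor, had a difference of 0.93 (adjusted p = 0.242) and CDH5, endothelial cadherin, 0.73 (adjusted p = 0.33), both picked after their values were seen. The summed endothelial signal was 13350.3 at 3 h, and 20422 and 20216 at 12 h. Its part in the matrix and sarcomere results was not tested.

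No member was called among the 11 smooth muscle, 10 skeletal muscle, 11 blood and 20 pharyngeal endoderm markers, with medians of 0.04, 0.15, 0.01 and -0.04. The smooth muscle genes ACTA2, an actin, and TAGLN, an actin-binding protein, had differences of 0.03 and -0.31 (adjusted p = 0.99 and 0.853). Of 21 neural crest markers ETS1 alone was called, next to 0.324% of all named genes called lower. No gene was called either among 25 heat shock, 31 ribosome biogenesis, 23 S phase, 27 mitosis, 19 cell cycle arrest and apoptosis, 30 respiratory chain, 26 FGF and ERK, 32 Wnt, 14 Notch, 16 retinoic acid or 20 TGF-beta genes, whose medians lay between -0.21 for mitosis and 0.26 for S phase. Over all named genes 1440 had an unadjusted p under 0.05, so a list without a call is not shown to have stayed level.

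BMP4-treated explants gave a second set of arrays over the same interval, with no array in common. From 3 h to 12 h, 377 probe sets were called in BMP4-treated explants (1.33%), with 242 higher (0.854%) and 135 lower (0.477%), and 96 of them were called in the same direction in untreated explants. These 96 are 67.6% of the untreated and 25.5% of the BMP4 calls, and no probe set was called in opposite directions. Across all tested probe sets the untreated and BMP4 changes correlated at 0.328. Both sets of calls use the same estimate of the spread. Of the 38 genes that fell in untreated explants 26 also fell under BMP4, where 0.751% of all named genes were called lower. Of the 57 that rose 36 also rose under BMP4, where 1.25% were called higher.

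All 12 amino acid genes and all 9 sterol genes called in untreated explants were called in BMP4-treated explants too. CHAC1 went from 5366 to 147 and 124 under BMP4, a difference of -5.05 (adjusted p = 5.73e-05), and MSMO1 from 6206 to 19921 and 16216 (1.53, adjusted p = 0.00166). The 2 lists had medians of -0.99 and 0.84 under BMP4, next to -1.07 and 0.83 without it. The matrix list had a median of 0.06 under BMP4 with 1 gene called, next to 0.20 with 3 called without it. Over all named genes 1.25% were called higher under BMP4 and 0.486% without it. DCN was called in both, while LUM and the brightest COL14A1 probe set were not called under BMP4, at 0.66 and 1.02.

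The sarcomere list had a median of 1.17 under BMP4 with 12 genes called, next to 0.60 with 5 called in untreated explants. Calls of higher genes were also more common over all named genes under BMP4, at 1.25% against 0.486% without it. The 2 counts for the list thus do not show an effect of BMP4 on sarcomere genes in particular. MYH15 went from 1182 to 9888 and 8952 under BMP4, so both untreated 12 h readings were below both BMP4 ones. The difference between the 2 changes, untreated minus BMP4, was -1.60 ± 0.31 with an unadjusted p of 0.000426, and it did not pass after adjustment. Of all 28329 probe sets none passed the test of a different change between untreated and BMP4-treated explants by limma, with 1340 at an unadjusted p under 0.05 and a smallest adjusted p of 0.139.

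**Figure D4:**
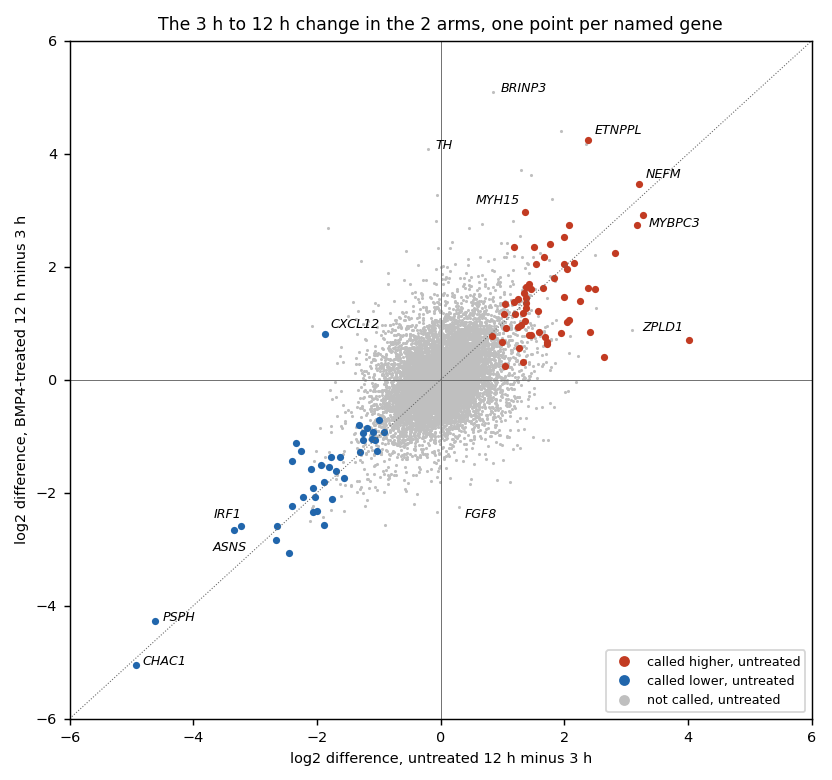
Log2 difference from 3 h to 12 h in untreated explants (horizontal axis) and in BMP4-treated explants (vertical axis); each point is a named gene, red called higher and blue called lower in untreated explants, grey not called there, and the dotted line marks equal change. CHAC1, PSPH and ASNS lie near the line, while CXCL12 (-1.88 untreated, 0.81 BMP4) is the one coloured point on the other side of 0.

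Some genes had changes that differed in size between untreated and BMP4-treated explants, none of them past the adjusted threshold. CXCL12, a chemokine that guides migrating cells, read 3037 at 3 h and 852 and 762 at 12 h without BMP4 (-1.88 ± 0.23, adjusted p = 0.00675). With BMP4 it read 1649 at 3 h, and 3220.2 and 2645 at 12 h, which is upward (0.81, adjusted p = 0.144). The difference between the changes was -2.69 ± 0.33 (adjusted p = 0.139), and CXCL12 is named after its values were seen. ZPLD1 stayed between 141 and 265 at 12 h under BMP4, from 108 at 3 h, and its changes differed by 3.31 ± 0.59 (unadjusted p = 0.000198).

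BRINP3, TH and VGLL1 were called higher at 12 h in BMP4-treated explants and not in untreated ones. BRINP3, a neural protein inducible by BMP and retinoic acid, read 19.8 at 3 h, and 76.1 and 42.8 at 12 h without BMP4, against 11.1, then 1210.1 and 1378 with it (adjusted p of the difference 0.139). TH, tyrosine hydroxylase, read 11.8, then 4.65 and 8.71 without BMP4, and 7.79, then 557 and 596 with it. VGLL1, a cofactor of TEAD factors, read 68.5, then 81.7 and 49.2 without BMP4, and 13.4, then 434 and 313 with it. FGF8 was called lower under BMP4 and not without it, at 1635, then 2155 and 1865 without BMP4, and 1895, then 343 and 415 with it.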

How the data were processed

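The authors deposited one probe set signal intensity per array on a linear scale; MAS5 is the tool named in the submitters' processing notes, and the scaling target and version are not given in the sources used here. Signals ran from 1 to 43611.53 and were not rescaled. The table holds 38535 probe sets, 96 of them controls that were left out.

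Values were tested as log2(signal + 27.79), the added amount being the 25th percentile of the table, for probe sets above the 40th percentile of their array on at least 2 of 9 arrays (28329 kept, 10110 dropped). limma 3.58.1 in R 4.3.3 fitted 7 group means to all 9 arrays, with variances moderated along a trend over signal, and gave two-sided p-values adjusted over the 28329 probe sets. The median residual SD was 0.401 in the dimmest 25% of probe sets and 0.155 in the brightest 25%; the number of arrays limits the precision.

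Names came from the array's annotation matched to chicken RefSeq genes (GRCg7b), with 27168 probe sets carrying 1 symbol, 177 several and 11094 none. Of the list genes, 739 were matched by symbol, 20 by synonym and 6 by a former symbol. The former symbols were set down after values had been seen, and the called amino acid genes TARS and GARS entered their list in this way. Synonyms are those RefSeq gives, and some point to a gene named for another family member, such as PKLR for PKM, GADD45G for GADD45B, ALAS1 for ALAS2, RAX2 for RAX and KRT24 for KRT19. None of the genes matched by synonym was called except MYH15 (a RefSeq synonym is MYH6), which the list also holds by its own symbol. Named are the 15 highest and 15 lowest called genes, up to 4 called members of each list in each direction, a set list of cardiac and early-response genes, and the 5 genes with the largest difference between untreated and BMP4 changes in each direction (unadjusted p under 0.01, since under 5 were called); other named genes are marked in the text. The members, lists and rules were chosen with earlier results of these data known. The letters A and B were not shown to pair arrays across treatments: the A minus B differences correlated at 0.126 between them.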

Additional observations from a re-analysis of the deposited data

Results flagged for a closer look

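Among the genes named by the rules or called in untreated explants, and not over all genes, 11 were picked out because the untreated and BMP4-treated explants moved in opposite directions from 3 h to 12 h on both 12 h arrays of each. The log2 change without BMP4 minus that with BMP4 was -4.51 for GLIPR1L, -4.29 for TH, -3.40 for SLC25A39, -2.69 for CXCL12 and -0.71 for JUN. It was 2.94 for WIPF2, 2.80 for LOC426820, 2.72 for CBX2, 2.69 for LOC421441, 2.54 for FGF8 and 0.29 for ISL1. The difference between the changes passed the adjusted threshold in none of these genes (limma), with unadjusted p from 7.83e-06 for CXCL12 to 0.219 for ISL1. GLIPR1L, WIPF2, LOC426820, CBX2 and LOC421441 were dim, with no untreated 3 h or 12 h signal above 248. TH lay under the added 27.79 on all 3 untreated arrays, so its untreated direction has no weight and the difference comes from the BMP4 arrays.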

How the results depend on the processing

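The called genes kept their direction under every alternative run. The 142 called probe sets became 58 with no filter on low signals, 0 with no variance trend, 248 in a fit of the 5 untreated arrays, 1280 with a replicate block for the letters A and B, 255 at an adjusted p under 0.10, and 106 to 242 leaving out one 12 h array. The 95 called genes became 40, 0, 155, 773 and 163 in the same order, and 70 to 151 leaving out one array. Of the 95, 69 were still called without untreated array A and 55 without B. The amino acid list had 12 calls, which became 8 with no filter, 0 with no trend, 17 with the block and 9 to 13 leaving out one array; the sterol list had 9, which became 6 with no filter or from the mean over a gene's probe sets, 0 with no trend, 20 with the replicate block (19 higher and 1, INSIG2, lower) and 7 to 12. The sarcomere list had 5, which became 3 with no filter, 0 with no trend, 11 with the block and 3 to 6, with 3 without untreated array B. The test between treatments, with 0 calls, gave 136 with the block, 2 from the mean over a gene's probe sets and 0 to 2 leaving out one array. With the mean over a gene's probe sets, 64 of the 95 genes were still called and 31 were not. The amino acid list then had 9 calls and the sarcomere list 4. The smallest adjusted p without the trend was 0.104. Outside the no-trend fit, 29 of the 95 genes were called throughout. The main fit has 2 residual degrees of freedom. The fit of the 5 untreated arrays, the replicate block and each run without a 12 h array have 1. Their counts are therefore not on the same footing as the 142. A call lost without an untreated 12 h array does not by itself show that the gene depends on that array. The letters were not shown to pair arrays, and the cause of these shifts was not tested.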

Other observations

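Called genes outside the lists included others of lipid and iron supply, all picked after their values were seen. AACS, which activates acetoacetate for lipid synthesis, read 607 at 3 h, and 2165 and 1769 at 12 h (1.65, adjusted p = 0.028). ME1, the cytosolic malic enzyme that makes NADPH, read 962, then 3278 and 3716 (1.83, adjusted p = 0.00503). TFRC, the transferrin receptor, read 1639, then 3694 and 4143 (1.24, adjusted p = 0.0315). For each of these genes both 12 h arrays were above the 3 h array. PDGFB, a growth factor for mesenchymal cells, went the other way, from 424 at 0 h and 2073 at 3 h to 548 and 626 at 12 h (-1.78, adjusted p = 0.0461). The calls of AACS and PDGFB were lost without array A (adjusted p = 0.0622 and 0.0758), and those of TFRC and PDGFB without array B (0.0852 and 0.0572). Of the 95 called genes, 55 stood on no list.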
